A study of Mus musculus with 10 samples.

Results

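The genes described here write, maintain and remove methyl groups on the cytosines of DNA. They are 8 genes, Dnmt1, Uhrf1, Hells, Dnmt3a, Dnmt3b, Tet1, Tet2 and Tet3, chosen by name from the 48709 genes of the deposited tables, and all 8 were found. Their expected counts (read counts estimated per gene) were compared across 10 RNA-sequencing libraries of mouse utricular supporting cells. The utricle is a balance organ of the inner ear. Its supporting cells surround the mechanosensitive hair cells, and in the adult mammal they rarely divide. Cells carrying the Lfng-GFP reporter were sorted by fluorescence from cultured utricles of Lfng-EGFP mice at postnatal day 21. The cultures were given 10 μM TRULI in 0.1% DMSO, or 0.1% DMSO alone, for 5 days ("day 5"), or the same followed by 5 days without compound ("day 10"). TRULI inhibits the Lats kinases, which restrain the transcriptional coactivator Yap. All groups share the reporter, the age and the culture, and the sources do not say how many animals went into a library.

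The sample labels put 3 libraries in DMSO day 5, 3 in TRULI day 5, 2 in DMSO day 10 and 2 in TRULI day 10. For 4 of the 10 libraries the name under which the table was deposited gives another condition. The libraries labelled TRULI day 5 replicates 1 and 2 were deposited as DMSO day 10 replicates 1 and 2. Those labelled DMSO day 10 replicates 1 and 2 were deposited as TRULI day 5 replicates 2 and 3, and the library labelled TRULI day 5 replicate 3 as TRULI day 5 replicate 1. The 3 DMSO day 5 and 2 TRULI day 10 libraries carry the same condition in both. The rule that names these genes takes the condition from the deposited name. Here libraries are called by their sample label, and each comparison that the conflict touches is given in both groupings, with the sample labels first. The tables sum to 2463872 to 6255149 counts, and a floor of 3 counts corresponds to 0.479 to 1.16 CPM (counts scaled to library size, with TMM factors over the 10 libraries), which covers counting error only. All 8 supporting-cell markers, Sox2 and Lfng among them, had counts in every library, with a summed level of 3780 to 13503 CPM. Of markers of other cells, 1 or 2 of 6 leukocyte genes and 0 to 2 of 3 endothelial genes had counts in a library, and the skeletal muscle markers summed to 0 to 91.2 CPM. Hair-cell markers were present in every library, with 7 or 8 of 8 genes and 26.3 to 881 CPM. Schwann-cell and glial markers had counts for 3 or 4 of 4 genes (52.5 to 149 CPM). Fibroblast markers had counts for 2 to 7 of 7 genes (3.48 to 78.2 CPM). The mitochondrial ribosomal RNA mt-Rnr2 took 13.0% to 26.4% of the counts in 6 libraries and 1.45% to 2.53% in the other 4, which were those labelled TRULI day 5 replicates 1 and 2 and TRULI day 10. Lfng, the gene of the reporter, was at 65.1, 21.6, 105 and 67.8 CPM in those 4 libraries and at 294 to 544 in the other 6. Myod1, a muscle regulator, was at 34.8, 90.9, 15.1 and 49.4 CPM in the same 4 and at 0 to 0.386 in the rest. In those 4 it made up nearly all of the skeletal muscle sum. The muscle markers Myog, Myf5 and Pax7 were at 0 in every library, Des at 0 to 0.366 CPM and Acta1 at 0 to 1.14. The same 4 libraries are the day 10 libraries by deposited name.

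Methylation of CpG sites has to be copied onto the new strand each time DNA is replicated. Uhrf1 recognises the half-methylated site behind the replication fork, Dnmt1 methylates the new strand, and Hells, a chromatin remodeller of the Snf2 family, gives access to packed chromatin. Dnmt3a and Dnmt3b set methylation at new sites. The Tet enzymes oxidise 5-methylcytosine, after which the mark is lost by dilution at replication or by base excision repair. Because maintenance is tied to replication, transcripts of its factors are known to be more abundant in dividing cells.

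RefSeq promoter windows (GRCm38.p6, 250 bases before to 50 after a transcript start) were available for all 8 genes, 13 windows in all. They were searched on both strands for the E2F-type motifs TTTCCCGC, TTTGGCGC, TTTCGCGC and TTTGCCGC, since E2F factors act at many genes of the replication programme. The motif was present in 3 of the 13 windows, and these belonged to the 3 maintenance genes. It was not among the letters of the windows of the other 5 genes. Of all 32851 mouse windows, 2.26% hold it. The Tead motif GGAATG, which 14.7% of all windows hold, was in a single member window, that of another Uhrf1 start. CCAAT, held by 37.4% of all windows, was found in windows of Dnmt1, Uhrf1 and Tet3. One E2F-type match of each maintenance gene is shown because the maintenance genes share this feature and the rule for choosing genes did not use it. Each line is read 5′ to 3′ on the gene's strand, with the match in capitals.
Dnmt1: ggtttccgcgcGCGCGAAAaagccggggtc
Uhrf1: cccgagtcgggTTTCGCGCgcccaggcgtc
Hells: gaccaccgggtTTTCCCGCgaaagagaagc
These 30 bases lie at chr9:20952824-20952853 (minus strand), chr17:56304117-56304146 (plus) and chr19:38930917-38930946 (plus). The Dnmt1 window holds the motif at 2 places, TTTCGCGC on the opposite strand, which is shown, and TTTGGCGC on the gene's own strand, beginning at base 34 after the start. The motif begins 185 bases before the start in Uhrf1 and 62 before it in Hells. GENCODE M21 places the Dnmt1 and Hells matches shown in an annotated 5′ untranslated exon and the Uhrf1 match outside any exon. The 250 bases before that Uhrf1 start, chr17:56304063-56304312, carry the motif near their 5′ end and CCAAT at 2 positions downstream of it.
Uhrf1 promoter: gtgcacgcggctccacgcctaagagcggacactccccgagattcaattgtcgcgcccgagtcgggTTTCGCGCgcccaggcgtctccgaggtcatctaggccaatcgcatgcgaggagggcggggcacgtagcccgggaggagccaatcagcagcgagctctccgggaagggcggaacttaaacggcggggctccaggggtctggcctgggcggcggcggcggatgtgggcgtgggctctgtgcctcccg
A match describes the letters only, and no binding was measured here.

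Level per length was compared between the genes as FPKM (counts scaled to gene length and to the sum over protein-coding genes). Dnmt1 had the highest level, with a median of 18.8 FPKM over the 10 libraries (range 13.1 to 24.7), at percentile 73.3 of the protein-coding genes. Tet2 followed at 7.31 FPKM (0.930 to 17.9), then Dnmt3a at 4.44 (1.78 to 13.0), Tet3 at 2.79 (1.27 to 3.96) and Tet1 at 2.54 (0.672 to 8.26). The lowest medians were those of Uhrf1 at 1.38 FPKM (0.158 to 13.6), Dnmt3b at 0.479 (0 to 5.98) and Hells at 0.347 (0.0296 to 8.65). The ranges of every pair of neighbours in this order overlapped. Dnmt1 stood above Tet2 in 9 of 10 libraries, and Dnmt3a above Tet3 in 9. Tet3 stood above Tet1 in 6, Tet1 above Uhrf1 in 5 and Dnmt3b above Hells in 4 of 10, so that these neighbours were not in a fixed order. The order of the medians was the same in TPM. Dnmt1 was also the steadiest of the 8, its highest library being 1.98 times its lowest in CPM, against 163 times for Hells and 82.9 times for Uhrf1.

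**Figure D1:**
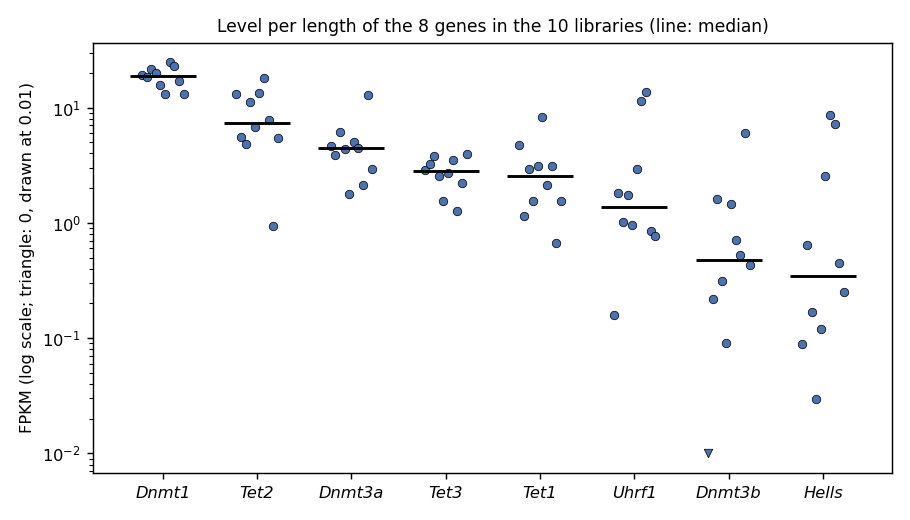
FPKM (log axis) of the 8 genes in the 10 libraries, ordered by median (line), with 1 point per library and a triangle for a value of 0. Dnmt1 lies between 13.1 and 24.7 FPKM, whereas Uhrf1 spans 0.158 to 13.6 and Hells 0.0296 to 8.65.

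Dnmt1 (ENSMUSG00000004099, chromosome 9 of GRCm38, 20907209 to 20959888, minus strand) encodes the maintenance methyltransferase. It was at 74.95, 73.3 and 84.0 CPM in DMSO day 5. Replicates 1 to 3 of the label TRULI day 5 were at 95.6, 86.8 and 48.3 CPM. The libraries labelled DMSO day 10 were at 85.7 and 93.6 CPM, and TRULI day 10 at 80.4 and 69.0. The lowest value was that of the library labelled TRULI day 5 replicate 3, and the groups at day 5 overlapped.

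Uhrf1 (ENSMUSG00000001228, chromosome 17, 56303321 to 56323486, plus strand) encodes the reader of half-methylated sites that brings Dnmt1 to them. It was at 0.386, 4.50 and 2.47 CPM in DMSO day 5, which are 1, 14 and 10 counts. The libraries labelled TRULI day 5 replicates 1 to 3 were at 5.27, 3.30 and 6.68 CPM. The libraries labelled DMSO day 10 were at 24.3 and 32.0 CPM, or 102 and 141 counts, and TRULI day 10 at 2.54 and 2.503. No other library came near the 2 labelled DMSO day 10, which are the libraries deposited as TRULI day 5 replicates 2 and 3.

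Hells (ENSMUSG00000025001, chromosome 19, 38930915 to 38971051, plus strand) had 1, 4 and 3 counts in the DMSO day 5 libraries, or 0.386, 1.29 and 0.741 CPM. Those labelled TRULI day 5 replicates 1 and 2 held 1 and 2 counts (0.160 and 0.733 CPM), and replicate 3 held 40 (10.3 CPM). The libraries labelled DMSO day 10 were at 26.0 and 15.2 CPM and TRULI day 10 at 2.36 and 1.46. The 3 highest libraries for Hells and for Uhrf1 were thus the same, and they are the 3 deposited as TRULI day 5.

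**Figure D2:**
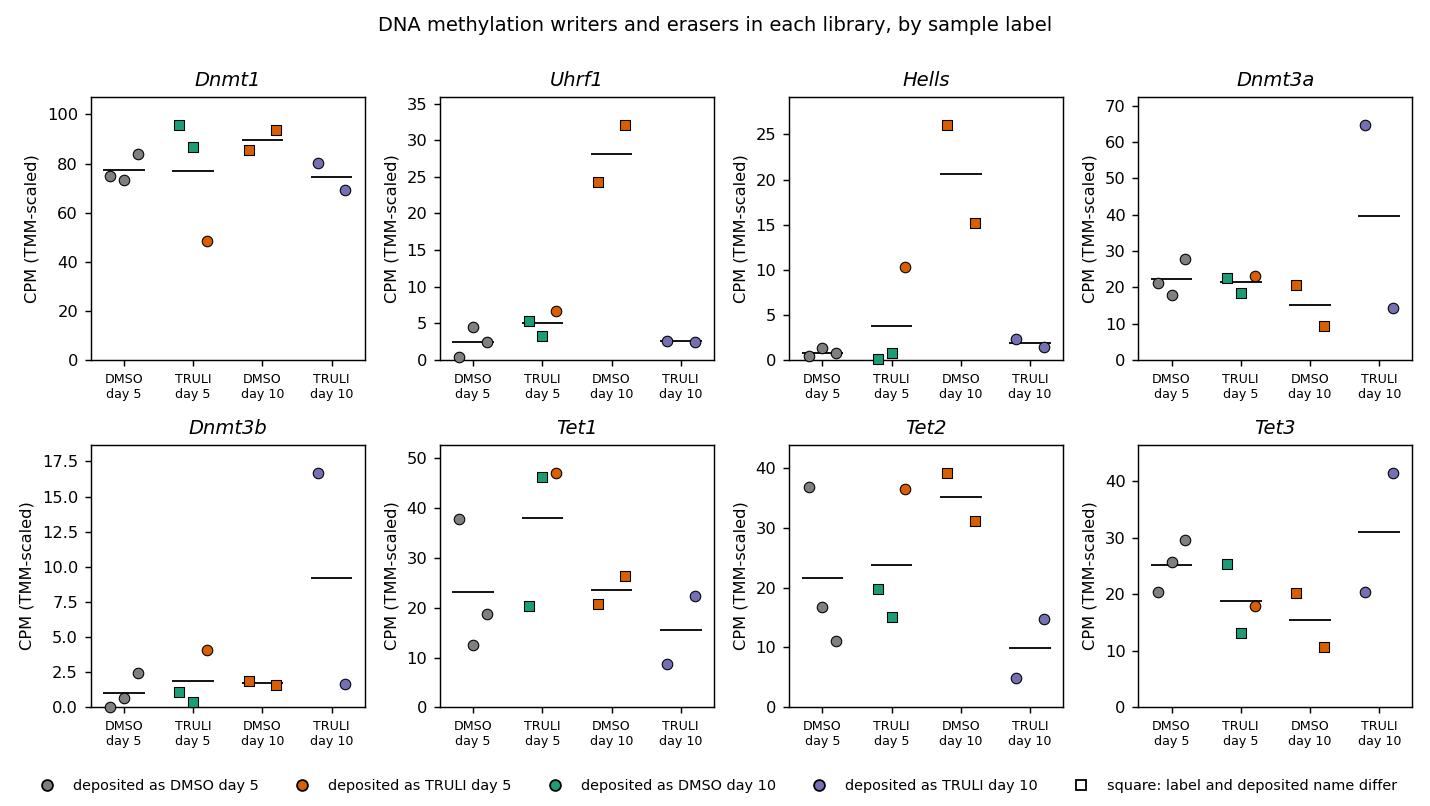
CPM of each of the 8 genes in every library, grouped by sample label (line, group mean), coloured by deposited name and drawn as squares where label and name differ. Uhrf1 and Hells are highest in the 2 squares labelled DMSO day 10 (24.3 and 32.0 CPM, and 26.0 and 15.2 CPM), while Dnmt1 stays between 48.3 and 95.6 CPM.

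Among the de novo methyltransferases, Dnmt3a (ENSMUSG00000020661, chromosome 12, 3806007 to 3914443, plus strand) was at 21.2, 18.0 and 27.7 CPM in DMSO day 5 and at 22.5, 18.3 and 23.1 in the libraries labelled TRULI day 5. It was at 20.8 and 9.32 CPM in those labelled DMSO day 10. The TRULI day 10 libraries were at 64.6 and 14.4 CPM, replicate 1 above and replicate 2 below most other libraries. Dnmt3b (ENSMUSG00000027478, chromosome 2, 153649450 to 153687730, plus strand) was low. It had 0, 2 and 10 counts in DMSO day 5, 7, 1 and 16 in the libraries labelled TRULI day 5, 8 and 7 in those labelled DMSO day 10, and 92 and 8 in TRULI day 10. TRULI day 10 replicate 1, at 16.7 CPM, was again the single high library, against 4.11 CPM for the next. That library also had the highest summed CPM of the hair-cell markers (881, against 26.3 to 732 in the others), of the fibroblast markers (78.2, against 3.48 to 46.3) and of the Schwann-cell markers (149, against 52.5 to 90.5), with all 8, all 7 and all 4 of these markers detected. The part of other cell types in its Dnmt3a and Dnmt3b levels was not tested. In sorted bulk samples, fewer cells of a type and less RNA per cell cannot be told apart.

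The 3 Tet genes encode the dioxygenases that oxidise 5-methylcytosine. Tet1 (ENSMUSG00000047146, chromosome 10, 62804570 to 62908996, minus strand) was at 37.9, 12.5 and 18.8 CPM in DMSO day 5 and at 20.4, 46.2 and 47.0 in the libraries labelled TRULI day 5. The libraries labelled DMSO day 10 were at 20.8 and 26.4 CPM and TRULI day 10 at 8.71 and 22.3, and all groups overlapped in part with another. Tet2 (ENSMUSG00000040943, chromosome 3, 133463679 to 133545139, minus strand) was at 36.7, 16.7 and 11.1 CPM in DMSO day 5 and at 19.8, 15.0 and 36.5 in those labelled TRULI day 5. It was at 39.1 and 31.1 CPM in the libraries labelled DMSO day 10 and at 4.90 and 14.8 in TRULI day 10, where replicate 1 was the lowest of all 10. Tet3 (ENSMUSG00000034832, chromosome 6, 83362373 to 83459084, minus strand) was at 20.5, 25.7 and 29.6 CPM in DMSO day 5, 25.4, 13.2 and 18.0 in the libraries labelled TRULI day 5, 20.3 and 10.7 in those labelled DMSO day 10, and 20.5 and 41.5 in TRULI day 10. It was the TRULI day 10 replicate low for Dnmt3a, replicate 2, that was highest for Tet3. The Tet2 range widened from 7.99-fold in CPM to 19.3-fold in FPKM. FPKM uses a separate effective length for each library, and the protein-coding total in place of the TMM-scaled library size. The part of each in the wider range was not tested.

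To ask whether TRULI altered these genes while it was present, the libraries labelled TRULI day 5 were compared with DMSO day 5. None of the 6 members tested was called by edgeR's quasi-likelihood test (adjusted p under 0.05), and none had an unadjusted p under 0.05. Dnmt3b and Hells were removed by the filter on low counts. DESeq2 called 0 members as well. Over all genes, 1 of 11071 was called (0.00903%), and 1515 had an unadjusted p under 0.05. Uhrf1 had the largest estimate, a log2 fold change of 1.03 (SE 0.83, edgeR adjusted p = 0.571), from means of 2.45 ± 2.06 to 5.08 ± 1.70 CPM (SD, n = 3 each). It passed the same filter through the TRULI group alone, in which it was higher. Dnmt1 was at -0.03 (SE 0.34) and the median of the 6 at 0.05, against 0.05 for all genes. The low share of all genes called depended on 1 library. Without TRULI day 5 replicate 3, 19.3% of 11382 genes were called, with 0 members among them. Leaving out any other single library called 0.0% to 0.00857% of genes and 0 members. In replicate 3 mt-Rnr2 took 18.4% of the counts, against 1.99% and 2.53% in replicates 1 and 2. Leaving out the 2 libraries whose label and name differ gave 1.42 for Uhrf1 (edgeR adjusted p = 0.684) and no call, with a single TRULI library assumed to vary like the controls.

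By deposited name the same comparison called 2 of 7 members tested, both higher with TRULI, where 3.28% of 11529 genes were called in either direction. Both were above the filter's minimum of 2.70 CPM in all 3 TRULI libraries and in 0 (Hells) and 1 (Uhrf1) of the 3 controls, so that they entered the test through the group in which they were high, and both folds rest on few control counts. Hells rose by a log2 fold change of 4.37 (SE 0.59, edgeR adjusted p = 0.00499), from 0.804 ± 0.453 to 17.2 ± 8.04 CPM (SD, n = 3 each). No library of one group reached the other, which also held for Tet3, a gene not called. How many of all genes were separated in this way is not given here, so this is a description only. Uhrf1 rose by 3.07 (SE 0.70, edgeR adjusted p = 0.0414), from 2.45 ± 2.06 to 21.02 ± 13.0 CPM, with the lowest TRULI library at 6.68 and the highest control at 4.50. Dnmt1 had a log2 fold change of -0.01 (SE 0.26, edgeR adjusted p = 0.987), with means of 77.4 and 75.9 CPM. In the labelled comparison the same filter had removed Hells. Between these groups mt-Rnr2 took 13.0% to 23.7% of the counts with TRULI and 16.2% to 26.4% in the controls, and Lfng was at 294 to 526 and 504 to 544 CPM. The Tet genes were not called: Tet2 was at 0.76 (SE 0.40), Tet1 at 0.46 (SE 0.43) and Tet3 at -0.61 (SE 0.33). Hells stayed called whichever library was left out, whereas Uhrf1 stayed called in 1 such fit, the one without TRULI replicate 1 (numbered as deposited). Without DMSO replicates 1, 2 or 3 its edgeR adjusted p was 0.0758, 0.105 and 0.131, and without TRULI replicates 2 or 3 it was 0.122 and 0.0929. Of all genes, 2.08%, 0.444% and 1.33% were called without DMSO replicates 1, 2 and 3. Without TRULI replicates 1, 2 and 3 the shares were 2.44%, 1.24% and 3.27%.

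The summed level of 14 dividing-cell markers was highest in the libraries labelled DMSO day 10, which also held the highest Uhrf1 and Hells. It was 48.7 to 63.5 CPM in DMSO day 5 and 60.6, 65.2 and 203 CPM in the libraries labelled TRULI day 5 replicates 1 to 3. The libraries labelled DMSO day 10 stood at 762 and 596 CPM, with all 14 markers detected, and TRULI day 10 at 97.1 and 172, with Mki67 at 0 counts in both. Mcm7 alone gave 52.4 and 144 CPM of the TRULI day 10 sums. For Dnmt1 the picture depended on the measure. The libraries with its highest and lowest CPM, at 95.6 and 48.3, held 60.6 and 203 CPM of these markers. In FPKM the libraries labelled DMSO day 10 held the highest Dnmt1, at 24.7 and 22.85, against 13.1 to 21.5 in the others. The part of dividing cells in the levels of Uhrf1 and Hells was not tested.

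**Figure D3:**
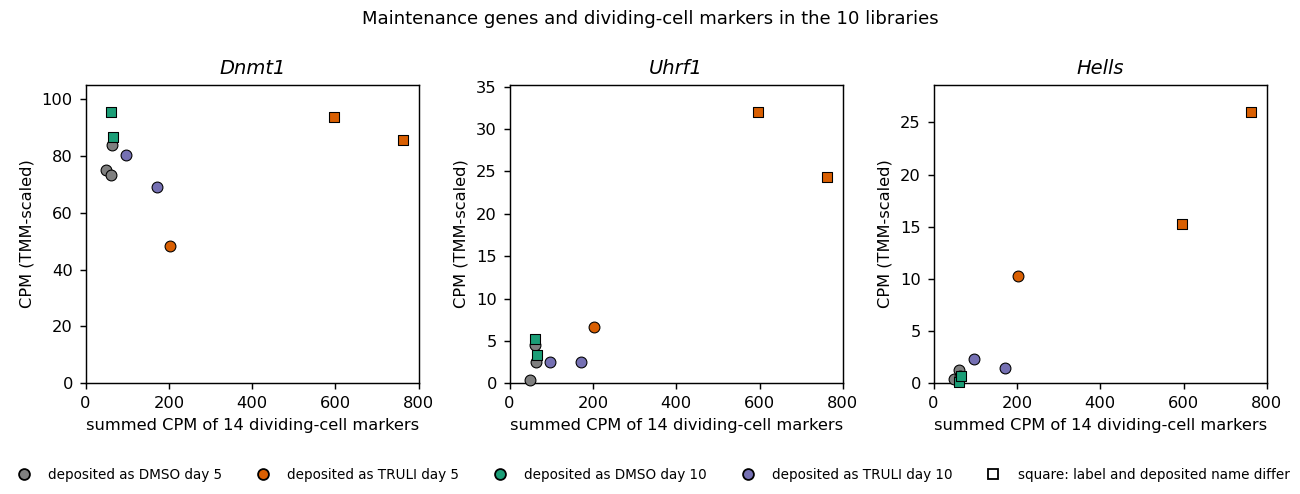
CPM of Dnmt1, Uhrf1 and Hells against the summed CPM of 14 dividing-cell markers, with 1 point per library, coloured by deposited name and squared where label and name differ. The 2 libraries highest in these markers, at 596 and 762 CPM, hold the highest Uhrf1 and Hells, and Dnmt1 lies between 85.7 and 93.6 CPM there.

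After withdrawal of the compound, the libraries labelled TRULI day 10 were compared with those labelled DMSO day 10. Of 7 members tested 1 was called, Uhrf1, which was lower with TRULI, where 2.07% of 12242 genes were called. Its log2 fold change was -3.53 (SE 0.62, edgeR adjusted p = 0.0442), with 28.2 ± 5.45 CPM in DMSO and 2.52 ± 0.026 in TRULI (SD, n = 2 each). Hells was at -3.47 (SE 0.72, edgeR adjusted p = 0.0548), with 20.6 ± 7.63 and 1.91 ± 0.635 CPM. Its groups did not overlap, but neither did those of Dnmt1, Uhrf1, Tet2 and Tet3. The share of all genes without overlap is not given here, so no weight is put on this. Tet2 was at -1.90 (SE 0.64, edgeR adjusted p = 0.129), from 35.1 to 9.85 CPM. Dnmt1 was at -0.32 (SE 0.35, edgeR adjusted p = 0.609). Tet3, at 0.94 (SE 0.59), and Dnmt3a, at 1.32 (SE 0.76), were the members with positive estimates. Hells passed the filter through the DMSO group alone. The mt-Rnr2 share was 23.7% and 13.0% in the DMSO libraries and 1.45% and 2.505% in the TRULI ones, and Lfng was at 526 and 294 CPM against 105 and 67.8, and the part of library composition in these differences was not tested. The Uhrf1 call was lost without either library labelled DMSO day 10, in fits with 1 control library and few calls over all genes. Its estimate was -3.71 without replicate 1 and -3.34 without replicate 2. With all 10 libraries in a single fit no member was called, and 0.0% of 12841 genes were. The number of members called was 3 without TRULI day 10 replicate 1 (Uhrf1, Hells and Tet3) and 5 without replicate 2 (Uhrf1, Hells, Dnmt3a, Dnmt3b and Tet2), where 24.4% of 12943 and 18.2% of 13107 genes were called, against 2.07% with all 4 libraries. Uhrf1 and Hells were called lower whichever TRULI library was left out, and the Dnmt3a estimate was -0.15 without replicate 1 and 2.00 without replicate 2.

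By deposited name, the comparison at day 10 called 0 of 6 members in edgeR's test and 0 in DESeq2, none had an unadjusted p under 0.05, and 0.0% of 11568 genes were called, with 532 at an unadjusted p under 0.05. Uhrf1 was at -0.77 (SE 1.05), with 4.28 ± 1.39 CPM in DMSO and 2.52 ± 0.026 in TRULI (SD, n = 2 each). Hells and Dnmt3b were removed by the filter on low counts. The groups were alike in mt-Rnr2, at 1.99% and 2.53% in DMSO and 1.45% and 2.505% in TRULI. Tet2 was at -0.84 (SE 0.80) and Dnmt1 at -0.29 (SE 0.45).

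**Figure D4:**
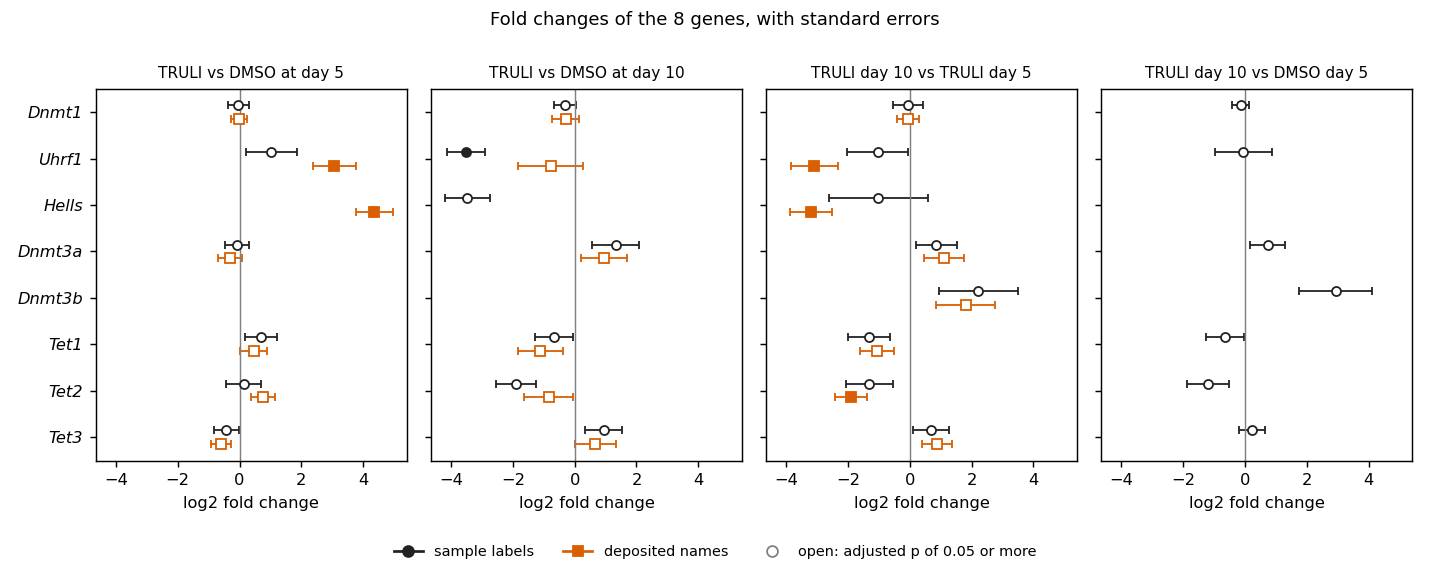
Log2 fold changes of the 8 genes with standard errors from edgeR in 4 comparisons, by sample label (circles) and by deposited name (squares), filled where the adjusted p is under 0.05. Uhrf1 is at 3.07 and Hells at 4.37 by deposited name at day 5, Uhrf1 is at -3.53 by sample label at day 10, and Dnmt1 lies between -0.32 and -0.01 throughout.

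Levels after withdrawal were also set against those at the end of treatment. By sample label, none of the 8 members was called between TRULI day 10 and TRULI day 5 in edgeR's test (0 with an unadjusted p under 0.05, 0 in DESeq2), where 0.0% of 12288 genes were called and 399 had an unadjusted p under 0.05. By deposited name 3 of 8 members were called, all lower at day 10, where 14.0% of 12450 genes were called in either direction. Hells fell by 3.20 on the log2 scale (SE 0.67, edgeR adjusted p = 0.0228), from 17.2 to 1.91 CPM. Uhrf1 fell by 3.09 (SE 0.75, edgeR adjusted p = 0.0342), from 21.02 to 2.52 CPM. Tet2 fell by 1.90 (SE 0.53, edgeR adjusted p = 0.0477), from 35.6 ± 4.08 (n = 3) to 9.85 ± 7.01 CPM (SD, n = 2). Its groups did not overlap, and those of Tet3, which was not called, did not either. The share of all genes without overlap is again not given, so this is a description only. Hells and Uhrf1 passed the filter through the day 5 group alone. In the 3 day 5 libraries mt-Rnr2 took 13.0% to 23.7% of the counts and Lfng was at 294 to 526 CPM, against 1.45% and 2.505% and 105 and 67.8 CPM at day 10, and the part of library composition in these differences was not tested. Dnmt1 was at -0.07 (SE 0.36, edgeR adjusted p = 0.910). This comparison and the labelled one at day 10 hold 4 libraries in common, the labelled controls of one being replicates 2 and 3 of TRULI day 5 in the other, so that they are not independent. Without TRULI day 5 replicate 2 or 3 no member was called, where 0.0986% and 6.01% of all genes were. Without replicate 1 Uhrf1 alone was called, where 2.07% of all genes were. Leaving out TRULI day 10 replicate 1 or 2 left 1 library in that group. Hells was then at -3.55 and -2.95, Uhrf1 at -3.07 and -3.12, and Dnmt3b at -0.61 and 2.61.

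The label and the deposited name give the same condition for 6 libraries, and 5 of these, all but TRULI day 5 replicate 3, allow TRULI day 10 to be compared with DMSO day 5, a comparison in which treatment and time in culture cannot be told apart. It shares its libraries with the comparisons above. It called 0 of 7 members in edgeR's test (1 with an unadjusted p under 0.05, 0 in DESeq2), where 20.3% of 11760 genes were called. Uhrf1 was at -0.05 (SE 0.92), with 2.45 ± 2.06 CPM (SD, n = 3) in DMSO day 5 and 2.52 ± 0.026 (n = 2) in TRULI day 10. Dnmt3b had the largest estimate, 2.93 (SE 1.19, edgeR adjusted p = 0.111), which rests on TRULI day 10 replicate 1. Dnmt3a was at 0.74 (SE 0.57), and at -0.65 without that library. Without TRULI day 10 replicate 2, Dnmt3a, Dnmt3b and Tet2 were called (edgeR adjusted p = 0.0173, 0.0159 and 0.0467), where 24.0% of 12623 genes were called.

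Whether the effect of TRULI differed between the time points was tested as an interaction over all 10 libraries. By edgeR's test, no member and no gene of 12841 was past the threshold in either grouping, while 874 genes by sample label and 1217 by deposited name had an unadjusted p under 0.05. The largest estimates by label were those of Hells, -5.64 (SE 1.84, edgeR adjusted p = 0.649), and Uhrf1, -4.53 (SE 1.11, edgeR adjusted p = 0.614). By deposited name Uhrf1 was at -3.85 (SE 1.16, edgeR adjusted p = 0.383) and Hells at -2.10 (SE 1.35, edgeR adjusted p = 0.648). Dnmt1 was at -0.28 by label and -0.27 by name.

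A list of 40 further genes of the pathway was examined in 6 groups: readers and binders of methylated DNA, maintenance partners, de novo partners, removal and repair of oxidised bases, Tet partners and methyl donor supply. By sample label at day 5, 0 of 32 tested genes were called in either direction (median log2 fold change 0.25). By deposited name 2 of 35 were higher and 1 lower (median 0.09), or 8.57% against 3.28% of all genes tested. Pclaf, which holds ubiquitylated sites for Dnmt1 on the replication clamp, rose by 3.28 (SE 0.69, edgeR adjusted p = 0.0303), and Lig1, the ligase that joins replicated fragments and binds Uhrf1, by 2.87 (SE 0.49, edgeR adjusted p = 0.0131). Both passed the filter on low counts through the TRULI group alone, and Pclaf was below its minimum in all 3 controls and in no test by sample label at day 5. Pcna, the clamp itself, was at 0.83 (SE 0.38, edgeR adjusted p = 0.301). The gene that was lower was Mat2a, which makes the methyl donor S-adenosylmethionine, at -1.09 (SE 0.22, edgeR adjusted p = 0.024).

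At day 10 by sample label, 1 of 36 tested pathway genes was called (2.78%, against 2.07% of all genes), Mat2a, higher with TRULI at 1.96 (SE 0.33, edgeR adjusted p = 0.0425), and the median of the list was -0.08. By deposited name 0 of 33 were called (median -0.12). Between TRULI day 10 and TRULI day 5, 0 of 33 were called by sample label (median -0.11). By deposited name 3 of 36 were higher, Gadd45g at 2.60 (SE 0.44), Mat2a at 2.06 (SE 0.26) and Gadd45b at 1.85 (SE 0.37), and 2 lower, Pclaf at -4.60 (SE 1.18) and Mbd3, a subunit of the NuRD repressor complex, at -3.06 (SE 0.55), with edgeR adjusted p-values from 0.00946 to 0.0388. These 5 are 13.9% of the list, against 14.0% of all genes tested, so that the count is that of the background, and Pclaf and Mbd3 passed the filter through the day 5 group alone. The Gadd45 proteins are stress-induced and have been linked to repair-based demethylation. In TRULI day 10 against DMSO day 5, 4 of 34 were higher and 5 lower (median 0.09), or 26.5% against 20.3% of all genes. Gadd45g was at 3.30, Gadd45b at 2.52, Mbd1 at 1.61 and Mat2a at 0.92 on the log2 scale, and Mbd3 at -2.72, Xrcc1 at -1.86, Zbtb38 at -1.54 and Lig3 at -1.51. Here Mbd3 passed the filter through the DMSO day 5 group alone, in which it was high. Xrcc1 and Lig3 form the ligase complex that closes base excision repair.

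Mat2a was at 1386, 1635, 1471 and 1648 CPM in the 4 libraries in which mt-Rnr2 took 1.45% to 2.53% of the counts, and at 320 to 925 CPM in the 6 in which it took 13.0% to 26.4%. Gadd45b was at 109, 277, 259 and 241 CPM in those 4 libraries and at 22.8 to 103 in the others. The part of library composition in these differences was not tested.

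Likeness of pattern was measured as Pearson's r of log2 CPM over the 10 libraries, among 9690 protein-coding genes with a mean count of at least 20 and at least 1 count in every library. It is given as a description, because the libraries share groups, depth and composition. The genes nearest to Hells were Mcm3 (r = 0.95), a helicase subunit of the replication fork, Tubb5 (0.94), a tubulin, and Kif20a (0.93), a kinesin of cell division. Nearest to Uhrf1 were Knstrn (r = 0.97), a spindle and kinetochore protein, Tgfb2 (0.95), a secreted growth factor, and Thoc1 (0.94), an mRNA export subunit. For Dnmt1 the nearest was Hdhd5, at r = 0.85. Nearest to Dnmt3a were Khdc4 (r = 0.96), Kif1b (0.93) and Fryl (0.91), and to Dnmt3b Ctnnd2 (r = 0.93), Pdcd5 (0.91) and Cdh4 (0.91). Each of these patterns is led by TRULI day 10 replicate 1 in the member itself. The Tet genes were nearest to Zfp607b (Tet1, r = 0.94), Rad1 (Tet2, r = 0.91) and Cd72 (Tet3, r = 0.93).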

How the data were processed

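The authors sorted supporting cells, sequenced their RNA and mapped reads to GRCm38/mm10 with STAR. They deposited expected counts per gene, 1 table per library, with effective lengths and no normalization. The counting program and the use of strand are not given in the sources used here. The labels describe poly(A) selection and a TruSeq-type kit, the methods a QIAseq FX single-cell kit. Paralogs and overlapping genes can share reads.

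Of 48709 genes, 48349 matched GENCODE M21 by identifier, which gave symbols and positions. Expected counts were rounded, filtered with filterByExpr, scaled by TMM and compared with the quasi-likelihood test of edgeR 4.0.16 (R 4.3.3), 2 groups per fit, with Benjamini-Hochberg adjustment over all genes tested and calls at 0.05. SE is the size of the log2 fold change divided by the square root of F. Alternatives were DESeq2 1.42.0, its size factors, no filter, all 10 libraries in a single fit, a log2 fold cut of 1, the replicate number as a block, and leaving out libraries. No pair of tables held the same counts (lowest chi-square per degree of freedom 15.3). By the same measure the libraries labelled TRULI day 5 differed from each other by 41.2, 147 and 128. Those deposited as TRULI day 5 differed by 15.3, 26.0 and 29.8. The pair labelled DMSO day 10 differed by 29.8 and the pair deposited as DMSO day 10 by 41.2. Which grouping is right was not tested. FPKM used the protein-coding total.

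Groups follow the sample labels. The grouping by deposited name is the second one throughout. Libraries numbered alike in the deposited names at day 5 deviated together from their group means (correlations across genes 0.38, 0.19 and 0.31), so these numbers, which come from the deposited names, pair them by correlation alone. The label numbers at day 5 did not (-0.16, 0.07 and -0.20). At day 10 the same-number correlation was 0.20 by label and 0.18 by deposited name. With 2 libraries a group, centring on group means leaves a single value there, so it cannot show a pairing.

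Members and lists were chosen with earlier results of these data known. Named genes were all members, the pathway genes called (the 4 largest changes in each direction where more than 8 were) and the 3 genes most like each member. On counts simulated with a dispersion of 0.1, which was not estimated from these libraries, and 200 genes changed 4-fold, edgeR recovered 185 of 200 for the labelled day 5 comparison (11286 genes) and 112 for day 10 (12322 genes), with 7 and 2 false calls.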

Additional observations from a re-analysis of the deposited data

How the results depend on the processing

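The calls changed with the grouping of libraries: by deposited name the number of members called went from 0 to 2 at day 5, from 1 to 0 at day 10 and from 0 to 3 between TRULI day 10 and day 5. In the labelled day 10 comparison, DESeq2 called 2 members (Uhrf1 and Hells), no filter 3 (with Tet2) and all 10 libraries in a single fit 0, and leaving out each library gave 0 to 5. Of all genes, 7.55% of 19310 were called by DESeq2, 9.07% of 19310 without the filter and 10.4% of 12242 with the block below, against 2.07% of 12242. In the single fit 0.0% of 12841 were called. In TRULI day 10 against DMSO day 5, no filter called 1 (Dnmt3b), where 17.6% of 19078 genes were called. Leaving out a DMSO library there called 0 members, where 2.99% to 6.87% of genes were called. By deposited name, all 10 libraries in a single fit called 1 at day 5 (Hells), where 0.849% of 12841 genes were called. Leave-outs at day 5 called 1 to 2, where 0.444% to 3.27% of genes were called. Between TRULI day 10 and day 5, leaving out a day 5 library called 0 to 1, where 0.0986% to 6.01% of genes were called. The cause of these changes was not tested. The call rule with a log2 fold cut of 1 and DESeq2's size factors changed none of these counts by over 1.5 times.

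With the replicate number as a block, 2 members were called in the labelled day 10 comparison (Uhrf1 and Hells). At day 5 by deposited name 2 were called (Uhrf1 at 3.18, Hells at 4.38), and 2 between TRULI day 10 and day 5 by deposited name (Hells and Tet2). Of all genes, 10.4% of 12242, 9.89% of 11529 and 8.87% of 12450 were called in these fits, in that order. Same-number libraries correlated at day 5 by deposited name, and at 0.20 at day 10 by label, where 2 libraries a group leave a single value. Between TRULI day 10 and day 5 by deposited name the correlations were 0.084 and -0.15. Whether the numbers pair libraries was not tested further. The block turned Hells to 2.27 between TRULI day 10 and day 5 by label, Uhrf1 to 0.43 in TRULI day 10 against DMSO day 5, and Dnmt1 to 0.16 between TRULI day 10 and day 5 by deposited name, where none was called. Without the filter, Uhrf1 was at 0.0308 in TRULI day 10 against DMSO day 5, and in 3 DMSO libraries against 1 TRULI library Dnmt3a was at 0.0555.

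Estimates whose direction turned when a library was left out were not called in the main comparisons. Their log2 ranges at day 5 by label were -0.18 to 0.17 (Dnmt1), -0.22 to 0.0893 (Dnmt3a) and -0.36 to 0.78 (Tet2), and at day 10 -0.15 to 2.02 (Dnmt3a). Between TRULI day 10 and day 5 by label they were -0.29 to 0.10 (Dnmt1), -0.59 to 1.58 (Dnmt3a) and -0.20 to 3.10 (Dnmt3b). In TRULI day 10 against DMSO day 5 they were -0.65 to 1.42 (Dnmt3a), -0.53 to 0.69 (Uhrf1) and -0.41 to 0.70 (Tet3). By deposited name they were -0.18 to 0.21 (Dnmt1) and -0.56 to 0.0015 (Dnmt3a) at day 5, -0.52 to 1.64 (Dnmt3a) at day 10, and -0.32 to 0.10 (Dnmt1), -0.33 to 1.76 (Dnmt3a) and -0.61 to 2.61 (Dnmt3b) between TRULI day 10 and day 5. With 2 or 3 libraries a group, and under 10 counts in most libraries for Dnmt3b and Hells, which smaller changes of these genes could be detected was not simulated.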
